A study of Mus musculus with 9 samples.

Results

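Protocadherin genes were examined in messenger RNA of the mouse nucleus accumbens, a reward-related part of the ventral striatum made up mostly of medium spiny neurons. The members were the genes whose symbol starts with Pcdh and whose mean level over 9 sequencing lanes was above 0 RPKM (reads of a gene model scaled to its length in kilobases and to the lane total), which gave 70 of the 21423 genes in the table. They were 14 alpha (Pcdha), 22 beta (Pcdhb) and 22 gamma (Pcdhg) genes of the clustered family and 12 non-clustered genes. All groups were adult male C57BL/6 mice aged 2 to 5 months that received 1 intraperitoneal injection a day for 7 days. The withdrawal group received cocaine and was then left in the home cage for 8 days without it. The cocaine group was killed 24 h after its last cocaine injection, and the saline group 24 h after its last injection of saline at 10 ml/kg. The cocaine doses were 10 or 20 mg/kg, and which samples received which is not in the labels. Punches from 8 mice were pooled in each group, and the pool gave 1 library that was sequenced in 3 lanes. The lanes are technical, so n was 1 library a group and no p-value speaks to the treatment. An SD or standard error below is over the 3 lanes of a library and covers sequencing alone.

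Protocadherins are cadherin-type adhesion proteins of the neuronal surface. In the alpha and gamma clusters each gene has its own promoter and large first exon, which codes for the outside of the protein and is spliced to short constant exons shared by the whole cluster, whereas beta genes are single large exons. Neurons turn on a subset of first exons, through DNA methylation, CTCF and cohesin, and the resulting set of isoforms lets branches of 1 neuron recognise each other. The non-clustered genes, most of them of the delta subfamily, lie apart and act in axon growth, synapse formation and cell sorting.

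Library totals were 19452882 reads for withdrawal, 24219333 for cocaine and 26006605 for saline, and lanes held 5546362 to 12026754. The median SD between lanes over all tested genes was 0.114 to 0.130 on the log2 scale. Differences are given on the log2(RPKM + 0.5) scale, which understates those of low genes, for genes that averaged 1 RPKM or more across the 9 lanes, as 14051 genes and 66 members did. The 4 members below it were Pcdhb1, Pcdhb4 and Pcdhb8 (means of 0.326, 0.305 and 0.811 RPKM) and Pcdh12, a protocadherin of endothelial cells (0.0194 RPKM). A gene was called where 2 libraries were 1.5 times or more apart and their lanes did not overlap. Medium spiny neuron markers were all detected, with mean levels from 22.2 to 877 RPKM over 12 genes.

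Between the cocaine and saline libraries 4 of the 66 members were called higher (Pcdh10, Pcdh7, Pcdh11x and Pcdhb2) and 0 lower, while 2.93% of all tested genes were called higher and 2.41% lower. Between the withdrawal and saline libraries 6 members were called higher (the same 4 genes with Pcdh1 and Pcdhb16) and 0 lower, with 3.96% of all genes called higher and 3.37% lower. Both comparisons use the same saline library, so they are not independent. Between the withdrawal and cocaine libraries no member was called, against 0.47% of all genes called higher and 0.548% lower. All 11 tested non-clustered genes were higher in the cocaine library than in the saline library, with a median log2 difference of 0.48. The beta median was 0.24, the gamma median -0.26 and the alpha median -0.02, beside -0.05 for all tested genes. Against saline, the withdrawal medians were 0.46 for non-clustered, 0.11 for beta, -0.29 for gamma and -0.37 for alpha genes, beside -0.06 for all genes. With the libraries scaled to the same 75th percentile the alpha cocaine median became 0.05, so its sign changed with the scaling.

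**Figure D1:**
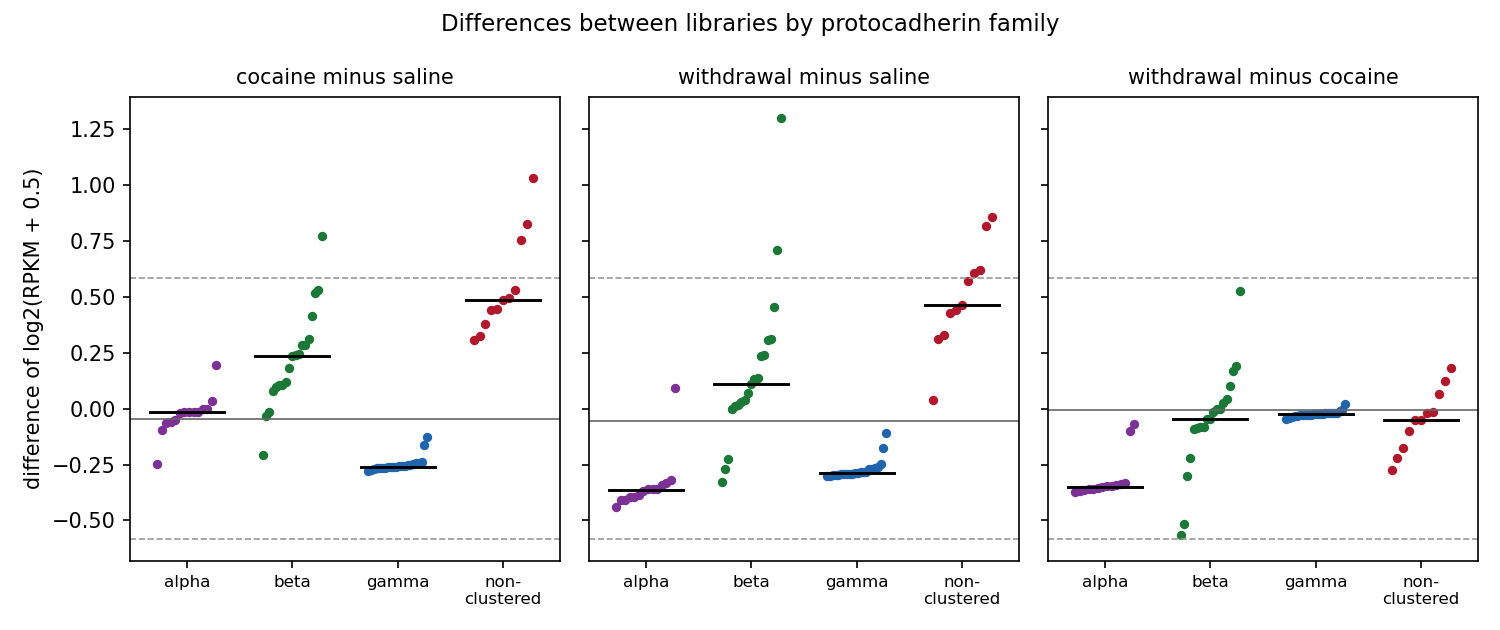
Difference of log2(RPKM + 0.5) of every tested protocadherin gene (points) by family, for cocaine minus saline, withdrawal minus saline and withdrawal minus cocaine. Black bars are family medians, the grey line is the median of all tested genes and dashed lines mark a difference of 1.5 times. Gamma and most alpha genes lie in tight bands, while non-clustered genes are spread from 0.31 to 1.03 in cocaine minus saline.

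Among the non-clustered genes, Pcdh10 is a delta protocadherin that takes part in the growth of striatal axons and, in hippocampal neurons, in activity-dependent removal of synapses. Pcdh10 had 57.8, 52.8 and 53.4 RPKM in the withdrawal lanes, 53.5, 52.0 and 51.2 RPKM in the cocaine lanes and 30.6, 31.0 and 30.7 RPKM in the saline lanes. Every withdrawal and cocaine lane lay above every saline lane, while withdrawal and cocaine lanes overlapped. The log2 difference was 0.75 ± 0.02 for cocaine minus saline (a fold of 1.69 on that scale) and 0.82 ± 0.04 for withdrawal minus saline (1.76). Pcdh7, a delta protocadherin whose cytoplasmic part binds the SET protein, had 17.5, 17.96 and 16.3 RPKM in the withdrawal lanes, 19.6, 18.6 and 20.6 RPKM in the cocaine lanes and 9.83, 8.52 and 9.61 RPKM in the saline lanes. The withdrawal and cocaine libraries, together the drug libraries, were above saline without overlap, and the withdrawal lanes were all below the cocaine lanes. The log2 difference was 1.03 ± 0.07 for cocaine minus saline (a fold of 2.05), 0.86 ± 0.07 for withdrawal minus saline (1.81) and -0.18 ± 0.06 for withdrawal minus cocaine.

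The windows from 250 bases before to 50 bases after the start of Pcdh10 and Pcdh7 are shown because both genes were called in both comparisons with saline. Pcdh11x and Pcdhb2 were also called in both, but no window was available for either. Sequences are from RefSeq on build GRCm38.p6, which is not the build of the expression values. CG dinucleotides, the sites of DNA methylation, are in capitals. The Pcdh10 window is chr3:45378148-45378447 on the plus strand and that of Pcdh7 is chr5:57717831-57718130 on the plus strand.
Pcdh10: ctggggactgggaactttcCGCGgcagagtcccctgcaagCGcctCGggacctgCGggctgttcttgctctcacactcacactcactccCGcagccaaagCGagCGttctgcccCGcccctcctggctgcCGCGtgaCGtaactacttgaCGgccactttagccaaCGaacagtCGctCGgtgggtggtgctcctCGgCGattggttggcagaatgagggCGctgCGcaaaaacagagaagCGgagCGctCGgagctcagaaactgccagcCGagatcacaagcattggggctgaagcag
Pcdh7: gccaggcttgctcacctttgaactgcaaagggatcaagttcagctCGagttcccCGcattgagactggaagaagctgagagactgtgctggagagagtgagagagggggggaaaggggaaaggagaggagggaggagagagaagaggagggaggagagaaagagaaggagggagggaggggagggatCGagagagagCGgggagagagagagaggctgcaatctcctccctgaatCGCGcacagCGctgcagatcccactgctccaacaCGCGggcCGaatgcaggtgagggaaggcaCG
The Pcdh10 window holds 24 CG dinucleotides with 62.3% G and C, and the Pcdh7 window 11 with 59.3%, while the median of 32544 such windows was 7 with 53.0%. CG sites run through the whole Pcdh10 window, whereas the middle of the Pcdh7 window is a long stretch of G and A. Of the 12 non-clustered members, 9 had a window in the table. On either strand, the GC box GGGCGG was in 4 of the 9 windows, that of Pcdh10 included and that of Pcdh7 not, and in 35.9% of all windows. The TATA box TATAAA was in 2 of the 9 and in 13.6% of all. The cyclic AMP response element TGACGTCA and the E-box CACGTG were in 0 of the 9, and in 1.80% and 7.17% of all windows. These are matches of letters in short windows and no binding was measured.

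Pcdh11x, an X-linked delta protocadherin, had 5.26, 5.84 and 5.06 RPKM in the withdrawal lanes, 7.28, 4.94 and 7.10 RPKM in the cocaine lanes and 3.48, 4.16 and 2.60 RPKM in the saline lanes. All drug lanes were above all saline lanes, by a narrow margin for the second cocaine lane and the second saline lane. The log2 difference was 0.83 ± 0.24 for cocaine minus saline and 0.61 ± 0.18 for withdrawal minus saline. The withdrawal call was lost without withdrawal lane 2, at 0.55, or without saline lane 3, at 0.45. It was also lost with 1 in place of 0.5 added to the RPKM. Pcdh1, a delta protocadherin also found in epithelia and blood vessels, was the most abundant non-clustered gene. Its model of 8358 bp is 1.54 times the longest reference transcript of 5416 bp, so sequence outside that transcript is part of its level. Pcdh1 had 59.9, 59.4 and 58.6 RPKM in the withdrawal lanes, 52.5, 49.6 and 54.8 RPKM in the cocaine lanes and 35.5, 39.3 and 40.4 RPKM in the saline lanes. The 3 libraries stood in the order withdrawal, cocaine, saline with no overlap of lanes. The log2 difference was 0.62 ± 0.06 for withdrawal minus saline, which was called, 0.44 ± 0.07 for cocaine minus saline and 0.18 ± 0.04 for withdrawal minus cocaine, which were not. Without saline lane 1 the withdrawal difference was 0.57, under the limit.

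Pcdh8, also known as arcadlin, is made in response to neuronal activity and promotes uptake of N-cadherin from synapses. It had 32.3, 27.3 and 30.2 RPKM in the withdrawal lanes, 35.3, 28.5 and 27.7 RPKM in the cocaine lanes and 22.0, 20.5 and 22.1 RPKM in the saline lanes. Saline lanes were the lowest without overlap, and the differences of 0.46 ± 0.08 for withdrawal and 0.48 ± 0.12 for cocaine were below 1.5 times. Pcdh17, a delta protocadherin of cortex and basal ganglia synapses, averaged 26.8 ± 1.44 RPKM in withdrawal, 27.8 ± 1.47 RPKM in cocaine and 19.6 ± 0.409 RPKM in saline (SD, 3 lanes each). Pcdh9, another delta member, averaged 17.9 ± 0.840, 19.3 ± 1.06 and 13.2 ± 0.469 RPKM in the withdrawal, cocaine and saline libraries. Both genes had all drug lanes above all saline lanes without reaching 1.5 times. Pcdh19, an X-linked delta gene whose human counterpart is mutated in an epilepsy of girls, averaged 8.96 ± 0.0724 RPKM in withdrawal, 9.11 ± 1.30 RPKM in cocaine and 7.13 ± 0.407 RPKM in saline. Pcdh18, a delta gene, averaged 5.69 ± 0.692, 5.16 ± 0.0214 and 3.67 ± 0.531 RPKM in the withdrawal, cocaine and saline libraries, with no lane of a drug library overlapping saline. Pcdh15, a component of the tip links of hair cells, averaged 2.67 ± 0.745, 2.73 ± 0.220 and 1.99 ± 0.281 RPKM in the same order. The Pcdh15 model of 21885 bp is 2.40 times the longest reference transcript of 9104 bp. Pcdh20 was the exception, with overlapping lanes and averages of 2.60 ± 0.504 RPKM in withdrawal, 3.23 ± 0.485 RPKM in cocaine and 2.52 ± 0.435 RPKM in saline. At any size, lanes were apart and higher for 10 of the 11 genes in cocaine against saline, beside 18.3% of all tested genes, and for 10 of 11 in withdrawal against saline, beside 18.6%. Between withdrawal and cocaine, Pcdh1 alone was apart and higher and Pcdh7 alone apart and lower, beside 8.66% and 9.42% of all genes. In bulk RNA a difference in the number of cells that express a gene and in the RNA per cell cannot be told apart.

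**Figure D2:**
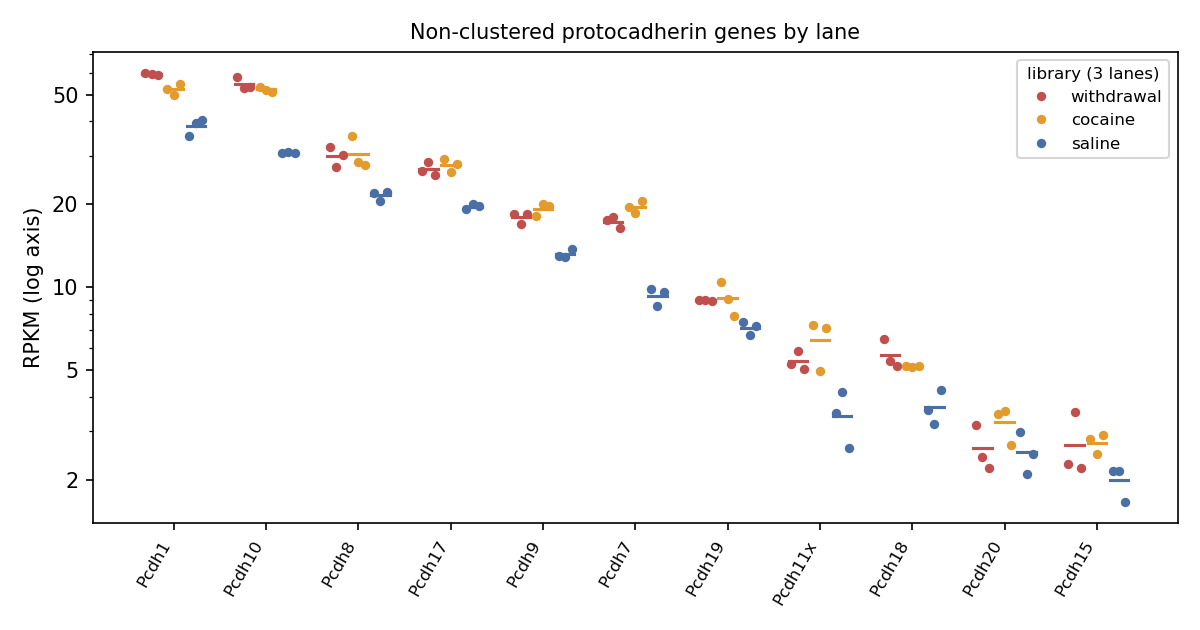
RPKM (log axis) of the 11 tested non-clustered protocadherin genes in each lane (points) of the withdrawal, cocaine and saline libraries, with bars at library means. Saline lanes are the lowest for every gene shown except Pcdh20, whose lanes overlap.

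Gene model length moved with these differences. Over the 14051 tested genes, Spearman's rho between the difference and the length of the gene model was 0.46 for cocaine minus saline, 0.42 for withdrawal minus saline and 0.01 for withdrawal minus cocaine, a description across genes that share 3 libraries. The non-clustered models are long, with a median of 9093 bp beside 3531 bp for all tested genes. Among genes of 9960 to 129833 bp, the longest of 20 equal bins, the median difference was 0.30 for cocaine and 0.28 for withdrawal against saline, with 13.5% and 15.8% of genes called higher. Pcdh10 is in this bin, with a model of 11814 bp beside a longest reference transcript of 8234 bp. Relative to genes of like length, its differences were 0.45 for cocaine and 0.53 for withdrawal, below 1.5 times. On that scale 3 members were called in cocaine against saline (Pcdh7, Pcdh11x and Pcdhb2), beside 3.39% of all genes called higher and 0.697% lower, and 2 in withdrawal against saline (Pcdh7 and Pcdhb2), beside 4.23% and 1.25%. None was called in withdrawal against cocaine, beside 0.491% higher and 0.52% lower. The non-clustered medians were 0.39 and 0.40 on that scale. Pcdh7 was at 0.83 in cocaine and 0.65 in withdrawal. The part of RNA quality or fragmentation in the relation with length was not tested.

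**Figure D3:**
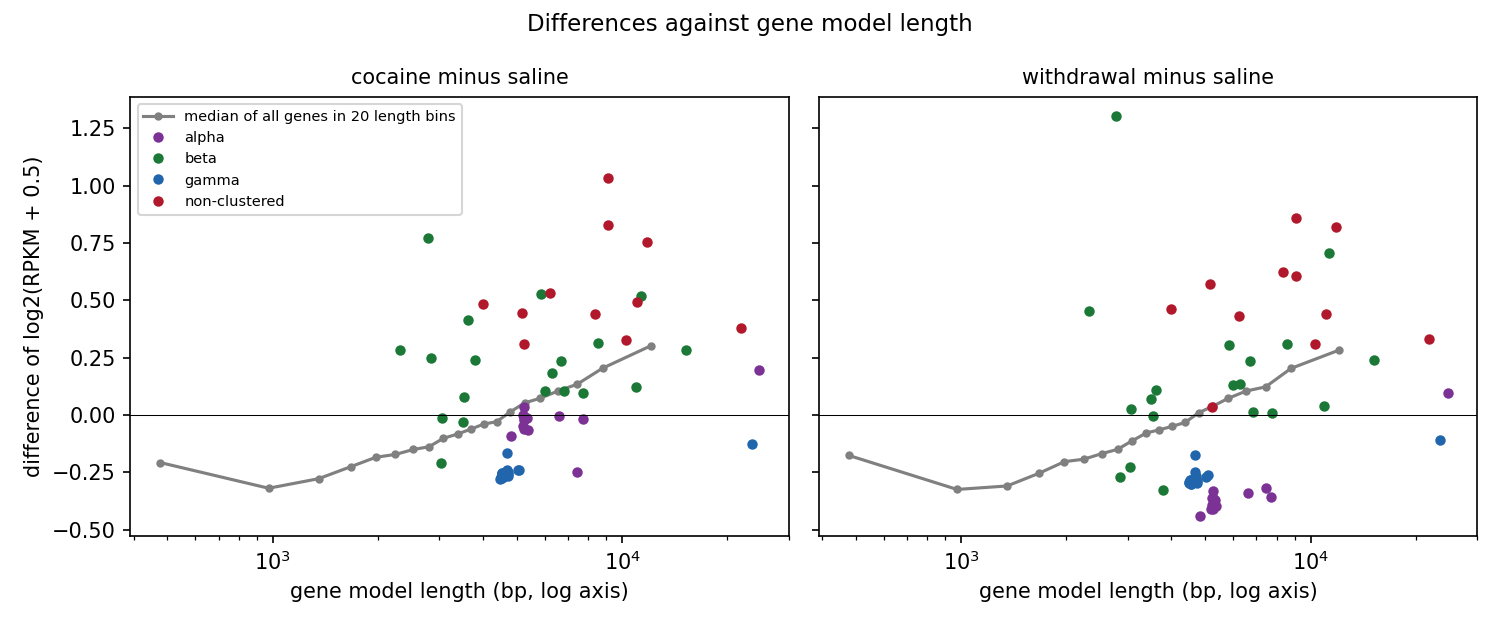
Difference of log2(RPKM + 0.5) against gene model length (bp, log axis) for tested protocadherin genes by family (coloured points), with the median of all tested genes in 20 length bins (grey line). The grey line climbs with length, and most non-clustered genes lie above it while gamma genes lie below it.

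The beta genes, single-exon members with no shared constant exons, were low, with means of 1.04 to 4.42 RPKM over the 19 tested genes. Pcdhb2 had 1.43, 1.74 and 1.88 RPKM in the withdrawal lanes, 1.54, 0.785 and 0.807 RPKM in the cocaine lanes and 0.419, 0.453 and 0.284 RPKM in the saline lanes. All withdrawal and cocaine lanes were above the saline lanes, and the first cocaine lane overlapped withdrawal. The values rest on 22 to 38 reads a lane in withdrawal, 16 to 34 in cocaine and 6 to 14 in saline. The log2 difference was 1.30 ± 0.13 for withdrawal minus saline and 0.77 ± 0.24 for cocaine minus saline, and the cocaine call was lost without cocaine lane 1, at 0.55. That cocaine call was also lost with 1 in place of 0.5 added to the RPKM. Pcdhb16 had 2.43, 2.24 and 2.18 RPKM in the withdrawal lanes, 2.05, 1.72 and 2.05 RPKM in the cocaine lanes and 1.30, 1.22 and 1.09 RPKM in the saline lanes. The 3 libraries did not overlap, and the difference was 0.71 ± 0.07 for withdrawal minus saline, which was called, and 0.52 ± 0.08 for cocaine minus saline, which was not. The withdrawal call of Pcdhb16 was lost relative to genes of like length, at 0.42, and with 1 in place of 0.5 added to the RPKM.

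The 3 most abundant beta genes showed no such separation. Pcdhb12 had 3.27, 4.02 and 5.07 RPKM in the withdrawal lanes, 4.78, 2.72 and 5.28 RPKM in the cocaine lanes and 4.25, 4.46 and 5.94 RPKM in the saline lanes. Pcdhb14 had 3.97, 4.10 and 4.92 RPKM in the withdrawal lanes, 3.57, 4.65 and 4.81 RPKM in the cocaine lanes and 4.18, 3.21 and 3.42 RPKM in the saline lanes. Lanes of all 3 libraries overlapped for both. Pcdhb20 had 3.98, 3.77 and 3.92 RPKM in the withdrawal lanes, 4.35, 3.51 and 4.75 RPKM in the cocaine lanes and 4.08, 4.36 and 3.19 RPKM in the saline lanes, again with overlap. Over the family, 5 of 19 genes were apart and higher in cocaine against saline and 0 were apart and lower, beside 18.3% and 23.9% of all genes. In withdrawal against saline 3 were apart and higher and 1, Pcdhb3, apart and lower, beside 18.6% and 25.6%. Pcdhb3 averaged 0.966 ± 0.0999 RPKM in withdrawal, 1.69 ± 0.404 RPKM in cocaine and 1.35 ± 0.226 RPKM in saline, and its withdrawal lanes were below all cocaine lanes too. The beta genes resemble each other in sequence, so short reads can be shared between them, and single beta values are uncertain. For 7 of the 19 the gene model behind the values was over 1.5 times the longest reference transcript, up to 15200 bp for Pcdhb21 beside 4705 bp, and Pcdhb16 (11303 bp beside 5225 bp) is one of them. The sequence outside the reference transcript is part of the levels of these 7 genes. Their median cocaine difference was 0.18, and that of the 11 tested beta genes with a model within 1.5 times of the reference in both directions was 0.24.

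**Figure D4:**
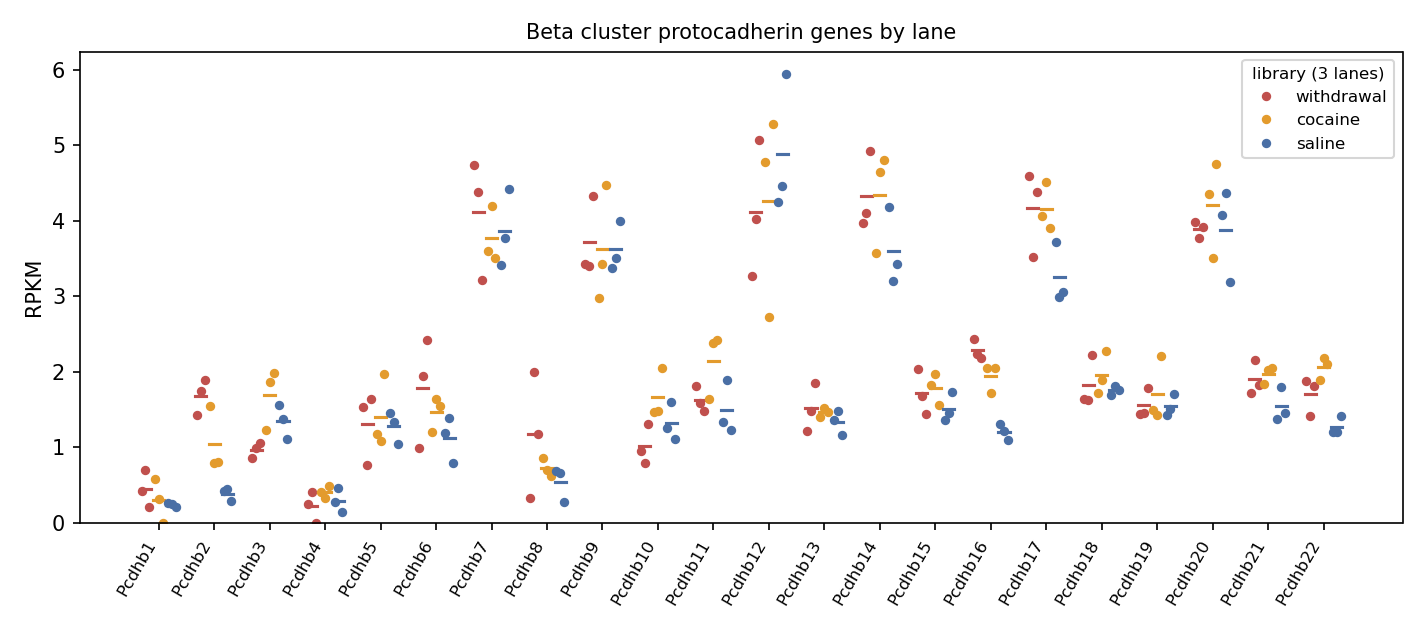
RPKM of the 22 beta protocadherin genes in each lane (points) of the withdrawal, cocaine and saline libraries, with bars at library means. Pcdhb2, Pcdhb16 and Pcdhb22 have all saline lanes below the others, and Pcdhb17 and Pcdhb21 have them below the cocaine lanes. Pcdhb12, Pcdhb14 and Pcdhb20, the 3 most abundant, overlap.

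The gamma genes were the highest members, with means of 54.8 to 84.0 RPKM for all 22 models. These levels are not 22 measurements, because each model carries the shared constant exons. Multiplied back by model length and lane total, the model with the fewest reads, Pcdhga1, held 85.1% to 99.7% (median 98.2%) of the reads of each of 20 other gamma models, Pcdhgc5 aside. On the RPM scale (reads scaled to the lane total alone), Pcdhga1 had 280, 310 and 340 RPM in the withdrawal lanes, 318, 291 and 331 in the cocaine lanes and 376, 398 and 362 in the saline lanes. All drug lanes were below all saline lanes, and withdrawal and cocaine overlapped. On the log2 scale, the median SD between withdrawal lanes was 0.139 for gamma models, 0.130 for all tested genes and 0.0755 for non-clustered genes. Pcdhga1 averaged 310 ± 29.9 RPM in withdrawal, 313 ± 20.0 in cocaine and 379 ± 17.9 in saline (SD, 3 lanes each). The level was 0.827 of saline in cocaine and 0.818 of saline in withdrawal, and most of these reads fall in sequence that the models share. This split of reads was chosen after the data had been seen.

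The 3 gamma models with the highest RPKM were, like the shared part, lower in both drug libraries. Most of their reads are shared, so this rank by RPKM does not rank the isoforms. Pcdhgc3, a C-type isoform made in most neurons and not chosen by chance, which promotes dendrite branching in mouse cortex, had 74.2, 81.4 and 85.6 RPKM in the withdrawal lanes, 83.1, 74.97 and 84.8 RPKM in the cocaine lanes and 90.4, 93.6 and 88.1 RPKM in the saline lanes. Pcdhga6, a homophilic adhesion isoform of the A type, had 62.5, 69.5 and 76.6 RPKM in the withdrawal lanes, 72.8, 66.2 and 75.7 RPKM in the cocaine lanes and 85.0, 89.4 and 82.5 RPKM in the saline lanes. Both had every drug lane below every saline lane. Pcdhgb7, an isoform of the B type, had 63.2, 70.3 and 76.9 RPKM in the withdrawal lanes, 71.9, 66.5 and 74.8 RPKM in the cocaine lanes and 84.6, 90.4 and 81.1 RPKM in the saline lanes, with the same separation. The log2 differences from saline of Pcdhgc3 were -0.16 ± 0.06 for cocaine and -0.18 ± 0.07 for withdrawal, while those of the 19 A and B type models ran from -0.28 to -0.24 for cocaine and from -0.30 to -0.25 for withdrawal. All 22 models were apart and lower in cocaine, beside 23.9% of all genes, and 21 in withdrawal, beside 25.6%, the exception being Pcdhgc5, and none reached 1.5 times.

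Taking the reads of Pcdhga1 away leaves an estimate of the reads outside the shared sequence, called own reads here, which is low by any reads that are specific to Pcdhga1. For Pcdhgc3 this was 67.6, 71.7 and 61.2 RPM in the withdrawal lanes, 71.7, 59.9 and 67.0 in the cocaine lanes and 47.1, 40.7 and 50.6 in the saline lanes. The own reads of Pcdhgc3 were thus higher in both drug libraries without overlap, although its RPKM was lower. The own reads of Pcdhgc4, a C-type isoform needed for survival of mouse interneurons, averaged 19.9 ± 1.33 RPM in withdrawal, 23.9 ± 1.88 in cocaine and 19.0 ± 1.77 in saline, apart from saline in cocaine alone. The other 18 A and B type models had 0.167 to 17.7 RPM of own reads in withdrawal, and the highest were Pcdhgb6, Pcdhga12 and Pcdhga11. Pcdhgb6 averaged 17.7 ± 1.36 in withdrawal, 15.6 ± 4.10 in cocaine and 10.2 ± 2.15 in saline, apart from saline in withdrawal. Of the 20 models, 6 had own reads apart and higher and 0 apart and lower in cocaine against saline, and 3 apart and higher and 3 apart and lower in withdrawal against saline. The same Pcdhga1 reads are taken from all 20, so their own reads move together and are not separate results. In cocaine against saline 19 of the 20 averaged higher, with a median of 2.10 RPM over the 20. Models with few own reads could fall below 0, as Pcdhgb5 did at -2.69 RPM in withdrawal lane 1. Pcdhgc5, the third gamma C-type gene, averaged 954 ± 74.6 RPM above Pcdhga1 in withdrawal, 932 ± 38.8 in cocaine and 982 ± 35.6 in saline, with overlapping lanes. Its model of 23529 bp is 4.07 times the longest reference transcript, so these reads need not come from its own first exon.

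In the alpha cluster the withdrawal library was the low one. The alpha model with the fewest reads, Pcdhac1, held 93.7% to 99.9% (median 97.4%) of the reads of 10 other alpha models. Pcdhac1, a C-type isoform, had 33.0, 35.04 and 40.8 RPM in the withdrawal lanes, 47.3, 51.9 and 43.4 in the cocaine lanes and 52.6, 45.1 and 46.5 in the saline lanes. The withdrawal lanes were below all others, and the cocaine and saline lanes overlapped. The level in withdrawal was 0.754 of saline and 0.763 of cocaine, and in cocaine it was 0.989 of saline. By RPKM, 13 of the 14 alpha models were apart and lower in withdrawal against saline and 12 in withdrawal against cocaine, beside 25.6% and 9.42% of all genes. Both counts include 11 models that repeat 1 shared measurement, so they are not counts of genes. The count against saline also holds Pcdha1 and Pcdha4, of whose reads Pcdhac1 held 57.5% and 11.8%. The count against cocaine also holds Pcdha1. The alpha median of withdrawal minus cocaine was -0.35, beside -0.03 for gamma and -0.01 for all tested genes, and no alpha gene reached 1.5 times. Pcdha12, an alternate isoform, shows the pattern, with 6.55, 7.32 and 8.62 RPKM in the withdrawal lanes, 9.51, 10.5 and 9.28 RPKM in the cocaine lanes and 10.5, 8.996 and 9.05 RPKM in the saline lanes.

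Of the alpha genes 3 did not follow the shared part alone. Pcdha1, another alternate isoform, had 11.4, 13.0 and 14.6 RPKM in the withdrawal lanes, 16.5, 17.8 and 15.6 RPKM in the cocaine lanes and 19.3, 17.1 and 16.9 RPKM in the saline lanes. Above Pcdhac1 it had 22.2, 27.7 and 29.9 RPM in the withdrawal lanes, 32.4, 33.7 and 32.0 in the cocaine lanes and 40.4, 37.6 and 35.2 in the saline lanes. The withdrawal lanes were the lowest, the cocaine lanes next and the saline lanes the highest, with no overlap. Pcdhac2, a C-type isoform that spaces serotonin axons in the mouse, went the other way. Above Pcdhac1 it had 56.3, 53.5 and 55.2 RPM in the withdrawal lanes, 46.7, 54.9 and 52.2 in the cocaine lanes and 38.2, 35.8 and 36.3 in the saline lanes, so that both drug libraries were above saline. Its model of 24670 bp is 4.19 times the longest reference transcript, so these reads need not come from its own first exon. Relative to genes of like length, the RPKM of Pcdhac2 differed from saline by -0.11 in cocaine and -0.19 in withdrawal. The third is Pcdha4, which had 41.3, 46.2 and 50.7 RPKM in the withdrawal lanes, 48.7, 46.0 and 50.05 RPKM in the cocaine lanes and 57.5, 59.5 and 54.9 RPKM in the saline lanes, the highest of the alpha genes. Its reads were 98.1% to 100% of the sum of the lowest alpha and the lowest gamma model in each of the 9 lanes, and its model of 7440 bp is longer than the longest reference transcript of 5363 bp. Its value therefore does not measure the Pcdha4 isoform alone.

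**Figure D5:**
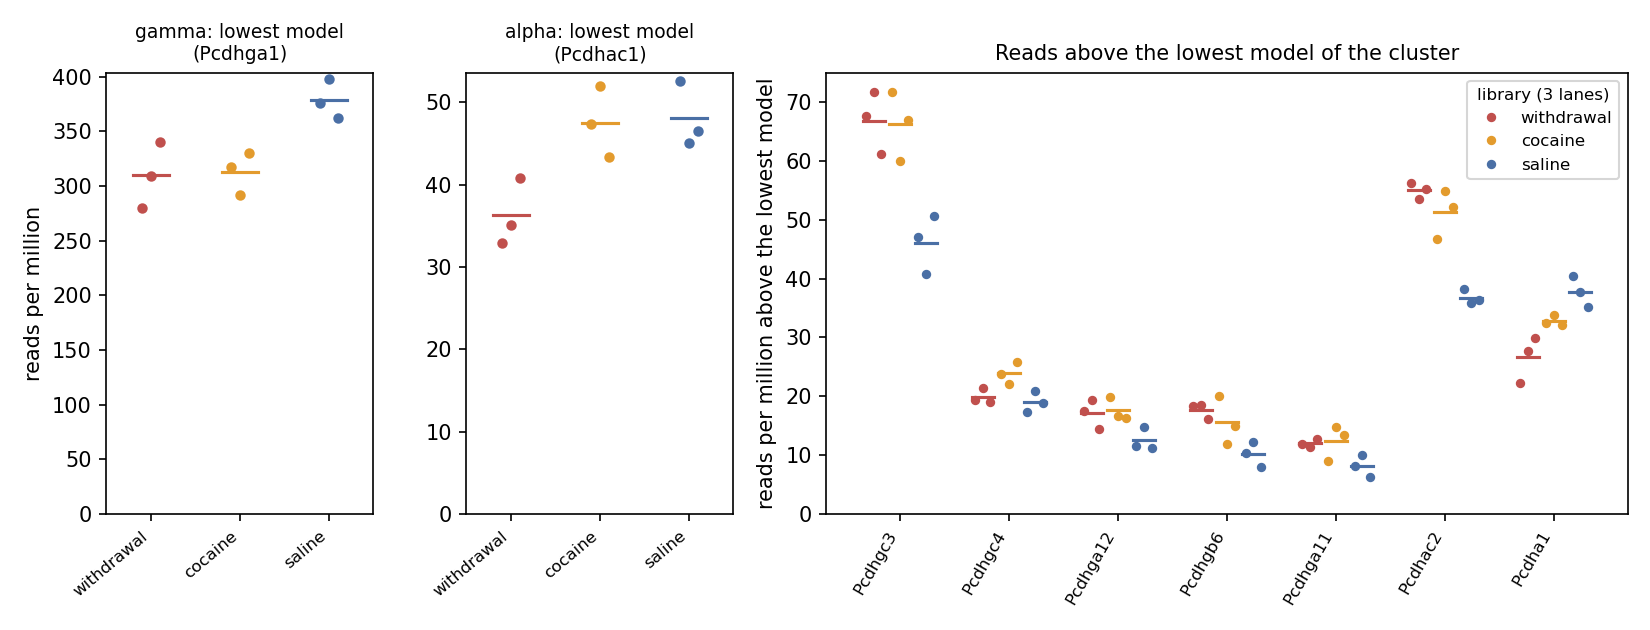
RPM (reads scaled to the lane total) of the gamma and alpha models with the fewest reads (left and middle) and RPM of 7 models above it (right), in each lane (points) of the withdrawal, cocaine and saline libraries, with bars at library means. The gamma level is lower in both drug libraries and the alpha level in withdrawal, while reads of Pcdhgc3 and Pcdhac2 above the shared level are higher in both.

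Genes that act on or with protocadherins were counted in the same way. Of 20 tested genes for first-exon choice and chromatin at the clusters (CTCF, cohesin and DNA methyltransferases among them), 0 were called in any comparison, beside 2.93% of all genes called higher and 2.41% lower for cocaine and 3.96% and 3.37% for withdrawal against saline. Their median differences were 0.06 for cocaine and 0.03 for withdrawal, and with the 75th percentile scaling 1 was called higher in withdrawal. At these shares, counts of 0 or 1 in lists of this size do not set the lists apart from all genes. Of 23 protocadherin partners and signalling genes, 0 were called for cocaine, with a median of -0.02, and 1 for withdrawal, with a median of -0.06. The called one was Set, the binding partner of Pcdh7, at 39.1 RPKM in withdrawal, 46.9 RPKM in cocaine and 62.1 RPKM in saline, a log2 difference of -0.66 for withdrawal minus saline. Of all genes, 2.93% were called higher and 2.41% lower in cocaine, and 3.96% and 3.37% in withdrawal. Of 22 tested other cadherins, 4 were called higher in cocaine (Cdh5, Fat1, Fat3 and Celsr3) and 7 in withdrawal (with Cdh6, Cdh7 and Cdh11), and 0 lower. Their medians were 0.33 for cocaine and 0.38 for withdrawal, and their models had a median of 7153 bp. Relative to genes of like length, 3 were called higher in cocaine and 4 in withdrawal, with medians of 0.16 and 0.27. On that scale 3.39% and 4.23% of all genes were called higher. Cdh5 is also among the endothelial and mural markers counted below. The giant cadherin Fat3 averaged 7.05 RPKM in withdrawal, 7.04 RPKM in cocaine and 3.44 RPKM in saline.

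Markers of other cells moved between the same libraries, and their part in the protocadherin differences was not tested. Over all tested genes, 2.93% were called higher and 2.41% lower in cocaine against saline, and 3.96% and 3.37% in withdrawal against saline. In withdrawal against cocaine, 0.47% were called higher and 0.548% lower. Lanes were apart and higher for 18.3%, 18.6% and 8.66% of all tested genes in these 3 comparisons, in that order. Of 11 endothelial and mural markers, 4 were called higher in cocaine and 7 in withdrawal against saline, and 1, Esam, higher in withdrawal against cocaine, and their summed level was 97.2 to 104 RPKM in withdrawal lanes, 82.7 to 88.2 RPKM in cocaine lanes and 62.7 to 65.3 RPKM in saline lanes. The endothelial protocadherin Pcdh12 had 0 to 2 reads a lane, too few to show a difference between libraries. Of 5 tested cortical projection neuron markers, 1 (Slc17a7) was called lower in cocaine and 3 (with Fezf2 and Nrn1) in withdrawal. Their sums were 20.5 to 24.3 RPKM in withdrawal lanes, 24.6 to 29.0 RPKM in cocaine lanes and 39.8 to 44.1 RPKM in saline lanes. Slc17a7 gave most of this fall, with averages of 3.97 RPKM in withdrawal, 5.54 RPKM in cocaine and 18.3 RPKM in saline. Cux2 went the other way, with saline lanes the lowest and differences from saline of 0.44 for cocaine and 0.48 for withdrawal. Tbr1 was at 0.04 for cocaine. Of 8 oligodendrocyte precursor markers, Tnr alone was called higher in both comparisons with saline, while 7 of 8 were higher and 5 of 8 apart and higher in each, with medians of 0.29 for cocaine and 0.23 for withdrawal. Their sums, to which Olig1 adds the most, were 317 to 341 RPKM in withdrawal lanes, 320 to 365 RPKM in cocaine lanes and 302 to 325 RPKM in saline lanes. Of 12 medium spiny neuron markers, 2 were called lower in cocaine and 1 higher in withdrawal against saline, with medians of -0.22 and 0.04. All 12 were apart and higher in withdrawal against cocaine, with a median of 0.32 and 0 called. Their sums, carried mostly by Penk and Ppp1r1b, were 2187 to 2213 RPKM in withdrawal lanes, 1824 to 1900 RPKM in cocaine lanes and 2377 to 2489 RPKM in saline lanes. Of 5 tested choroid plexus and ependymal markers, Ttr was called higher and Ccdc153 lower in cocaine against saline, and Ttr lower in withdrawal against cocaine, and the sums were 11.7 to 15.3 RPKM in withdrawal lanes, 16.1 to 23.1 RPKM in cocaine lanes and 15.2 to 18.3 RPKM in saline lanes. Of 4 tested meningeal markers, Fn1 was called higher in both, with sums of 11.002 to 13.0 RPKM in withdrawal lanes, 10.95 to 12.9 RPKM in cocaine lanes and 7.06 to 8.08 RPKM in saline lanes. Over the 9 lanes, Col1a2 averaged 2.06 RPKM and Dcn 2.07 RPKM, while Col1a1 averaged 0.0148 RPKM.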

How the data were processed

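Nucleus accumbens messenger RNA was measured in 3 pooled libraries of 3 technical lanes each. Random-primed cDNA of poly(A) RNA was read for 37 cycles from each end of inserts of about 200 bp, per the labels' protocols. The authors deposited RPKM values per lane and library with lane totals, per the file headers; the submitters' processing notes name Bowtie 0.12.7 and mm9. A counter and an annotation are not given in the sources used here. Groups were taken from sample titles.

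Values were averaged as log2(RPKM + 0.5) over lanes, and genes averaging 1 RPKM or more were compared by the rule of 1.5 times and no overlap of lanes; with 1 library a group no test of treatment was run. Model lengths and reads were recovered from the steps of the RPKM values, which are multiples of 1/37 of a read, so no count test was run, and compared with GENCODE M21. A lane's 1 read in 2 kb was worth 0.0416 to 0.0902 RPKM. Lanes with the same number did not deviate together. Alternatives were the pseudocount, the filter, the size limit, scaling, composite values, centring in 20 length bins, leaving out each lane, and limma 3.58.1 in R 4.3.3 over lanes with Benjamini-Hochberg adjustment, which compares libraries, not treatments. The scripts were tested on simulated data. The members, gene lists and rules were chosen with earlier results of these data known. Values in every lane were given for called non-clustered genes, the 3 most abundant members of each family and called members of the clusters; the other genes given by lane (Pcdhac1, Pcdhac2 and Pcdhga1) and the own-read averages were chosen after their values were seen.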

Additional observations from a re-analysis of the deposited data

How the results depend on the processing

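The counts of called members were 4 higher in cocaine against saline, 6 higher in withdrawal against saline, 0 in withdrawal against cocaine and 0 lower in all 3. With a size limit of 2 times, 1 was higher in cocaine (Pcdh7) and 1 in withdrawal (Pcdhb2) against saline, and centring by gene length left 2 in withdrawal. With a pseudocount of 0.1, 2 were lower in withdrawal against cocaine. Leaving out each lane gave 3 to 4 for cocaine and 5 to 7 for withdrawal against saline, and 0 to 1 higher and 0 to 2 lower in withdrawal against cocaine. The lanes behind these last counts were cocaine lane 1 (1 higher and 1 lower without it), withdrawal lane 1 (1 higher, Pcdhb2) and withdrawal lane 3 (2 lower). limma over lanes at an adjusted p of 0.05, which sets no size, called 12 higher and 21 lower in cocaine against saline, 11 higher and 33 lower in withdrawal against saline, and 0 either way in withdrawal against cocaine. With the lane number as a replicate block it called 9 higher and 20 lower, and 10 higher and 30 lower; correlations of lane deviations were -0.051 to 0.076 for the same number and -0.064 to 0.044 for different numbers, so the numbers share only a name. All lower calls of limma were alpha or gamma models, which share exons. No share over all tested genes is given beside the counts of these alternatives. The counts therefore do not set the members apart from other genes. The other alternatives run (pseudocount 1, filter at 5 RPKM or none, no condition on lanes, 75th percentile, median at 0, composite values, without long models) kept each count within 1.5 times. The medians of gamma and non-clustered genes against saline kept their sign under all 18 alternatives with a value, and that of beta genes under 17, since no beta gene reached 5 RPKM. Pcdh7 was called in cocaine against saline under all 18. Depth limits beta genes most, since Pcdhb2 rests on as few as 6 reads a lane.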
